A study of Homo sapiens with 12 samples.

Results

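The genes described are 10 enzymes and partners of the writing, copying and removal of DNA methylation. DNMT1 and UHRF1 maintain it, and UHRF2 is a paralogue of UHRF1. DNMT3A, DNMT3B and DNMT3L set it, and TET1, TET2, TET3 and TDG remove it. These 10 genes were chosen by name, as the rows of the deposited count table with these symbols, and all were found among 56638 genes. All 10 also passed the filter on low counts, which left 19130 genes for testing. Messenger RNA was sequenced from NT2/D1 cells, which derive from a human embryonal carcinoma, keep the traits of pluripotent cells and take a neural direction under all-trans retinoic acid (ATRA). The study set cells in which PRMT6 had been deleted with CRISPR/Cas9 against a CRISPR/Cas9 control. PRMT6 is an enzyme that adds methyl groups to arginines of histones and other proteins, and one of the arginines it methylates lies in the part of the histone H3 tail that UHRF1 binds. The 4 groups of 3 libraries each were knockout cells with ATRA (1 µM for 3 days), knockout cells untreated, control cells with ATRA at the same dose and time, and control cells untreated. All knockout titles carry the same line name, so differences between knockout and control are differences between this line and the control cells, and no label states that replicate libraries came from cultures grown apart. The p-values therefore rest on the scatter among these libraries alone, part of which can be technical.

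In mammals, methylation of cytosine in CpG pairs is set by DNMT3A and DNMT3B, with DNMT3L as a partner that has no catalytic activity of its own, and is copied after replication by DNMT1, which UHRF1 brings to the newly made strand. TET enzymes oxidise methylcytosine, and TDG cuts out the oxidised bases so that base excision repair can put back plain cytosine. Pluripotent cells are known for high DNMT3B, DNMT3L and TET1, which are lowered as the cells differentiate.

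The promoters of DNMT1 and UHRF1 are shown because these genes work as a pair at the replication fork. Each also holds a form of the E2F site in this window, though not the same form, and most promoters hold none. That of TET1 is shown because TET1 is the gene called lower in the knockout both with and without ATRA. Each window is 300 bases, 250 before and 50 after the start of transcription, from RefSeq on GRCh38.p14. Capitals mark E2F-site letters in DNMT1 and UHRF1 and CpG pairs in TET1. The DNMT1 window is chr19:10194904-10195203 on the minus strand, that of UHRF1 (its first of 3 listed starts) is chr19:4909251-4909550 on the plus strand, and that of TET1 (its first of 3 listed starts) is chr10:68560087-68560386 on the plus strand.
DNMT1: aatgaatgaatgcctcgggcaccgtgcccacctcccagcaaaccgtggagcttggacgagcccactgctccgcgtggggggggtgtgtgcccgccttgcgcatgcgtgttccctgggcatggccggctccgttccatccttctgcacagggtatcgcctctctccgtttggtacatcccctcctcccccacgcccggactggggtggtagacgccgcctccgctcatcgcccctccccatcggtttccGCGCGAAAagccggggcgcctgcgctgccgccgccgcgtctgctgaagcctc
UHRF1: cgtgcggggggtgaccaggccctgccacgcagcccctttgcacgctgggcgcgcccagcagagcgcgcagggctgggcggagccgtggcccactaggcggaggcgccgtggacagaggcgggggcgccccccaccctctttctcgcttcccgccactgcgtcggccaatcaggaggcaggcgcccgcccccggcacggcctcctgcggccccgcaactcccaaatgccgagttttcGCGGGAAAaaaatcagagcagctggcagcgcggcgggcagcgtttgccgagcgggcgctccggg
TET1: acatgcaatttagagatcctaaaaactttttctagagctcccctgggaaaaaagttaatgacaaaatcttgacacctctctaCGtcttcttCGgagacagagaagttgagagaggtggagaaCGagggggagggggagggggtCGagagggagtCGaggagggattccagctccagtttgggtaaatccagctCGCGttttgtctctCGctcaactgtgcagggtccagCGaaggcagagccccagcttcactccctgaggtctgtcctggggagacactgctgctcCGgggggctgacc
The letters searched were TTTGGCGC, TTTGCCGC, TTTCGCGC and TTTCCCGC on both strands, forms of the E2F site, and matches that overlapped each other were all counted. DNMT1 held 1 match that began at position -2 from the start, and UHRF1 held 1 that began at -14 and another in the window of its second start, at -160. Such letters were present in 3.31% of 35116 RefSeq promoters and in none of the listed windows of UHRF2, DNMT3A, DNMT3B, TET1, TET2, TET3 or TDG. A RefSeq window was found for 9 of the 10 genes. The DNMT1 window held 30 CpG pairs and the UHRF1 window 36, the TET1 window 10, and the median promoter 14. These matches describe the letters only.

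The libraries held 25.5 to 60.4 M counts. At these depths 3 counts correspond to 0.0433 to 0.128 CPM, the usual unit of counts scaled to library size, and every one of the 10 genes lay above this in every library. PRMT6 had 0 to 2 counts in the 6 knockout libraries and 110 to 1035 counts in the 6 control libraries. All 9 pluripotency genes examined (POU5F1, NANOG, SOX2, LIN28A, LIN28B, DPPA4, TDGF1, SALL4 and L1TD1) averaged over 5 CPM in each of the 4 groups. Libraries within a group were not alike. Knockout untreated 3 and knockout ATRA 2 stood apart from the other knockout libraries, with a summed level of 9 fibroblast genes of 2245 and 2253 CPM, against 12326 to 13916 CPM in the other 4 knockout libraries and 264 to 1503 CPM in the 6 control libraries. Knockout ATRA 1 and 3 were nearly the same library, with a chi-square of 1.91 per gene between them, and knockout untreated 1 and 2 gave 9.01, where pairs of other libraries of a group gave 78.1 to 416. Both pairs differed by more than counting noise, which does not show that they came from separate cultures. They were kept as separate libraries, so SDs and tests on 3 knockout libraries count near-identical ones apart. With each pair summed, which also leaves fewer libraries, 5.42% of genes were called between untreated knockout and control cells instead of 34.9%. With ATRA the share was 0.359% instead of 7.51%. The library labelled control ATRA 2 had a summed level of 7 retinoid-response genes of 992 CPM, against 5522 and 3537 CPM in control ATRA 1 and 3 and 430 to 835 CPM in the untreated control libraries. Among the knockout libraries with ATRA this sum was 1958, 6447 and 1961 CPM, against 687 to 711 CPM in the untreated knockout libraries, so that knockout ATRA 2, with the most DNMT3B of its group, had the highest sum. Libraries also differed by the GC content of their genes: the rank correlation, across genes, of a gene's level relative to its mean with its GC content was 0.324 to 0.476 in untreated knockout libraries and -0.376 to -0.212 in untreated control libraries. With ATRA it was 0.113 to 0.278 in knockout libraries and -0.31, -0.22 and 0.096 in control libraries.

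The genes called among the 10 were UHRF2, TET1 and TDG, lower in untreated knockout cells, and TET1, lower in knockout cells with ATRA. None of the untreated calls held once the GC trend of each library was taken out, as described below. DNMT3B was lower with ATRA in both genotypes but missed the edgeR threshold over all genes. Between untreated knockout and control cells, 3 of the 10 genes were called lower and none higher (edgeR quasi-likelihood F-test, adjusted p under 0.05 by Benjamini-Hochberg over 19130 genes). Of all tested genes, 34.9% were called in that comparison, 13% higher and 21.9% lower, so the share of the 10 was near that of all genes. The median log2 fold change was 0.03 over the 10 genes and -0.11 over all tested genes. The 3 genes called were also the only ones of the 10 whose knockout and control libraries did not overlap, which was so for 47.9% of all genes, 27% with the knockout lower. With ATRA, 1 of the 10 genes was called between knockout and control cells, TET1, which was lower, where 7.51% of all tested genes were called, 4.24% lower. For ATRA against untreated, edgeR called none of the 10 in knockout cells (2 at an unadjusted p under 0.05), where it called 0.0314% of all genes, and none in control cells (1 at an unadjusted p under 0.05), where it called 0.115%. DESeq2 called 1 of the 10 in each genotype, DNMT3B, where it called 2.9% of all genes in knockout cells and 8.55% in control cells. Limma-voom called none of the 10 in either, and 0% and 0.157% of all genes.

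**Figure D1:**
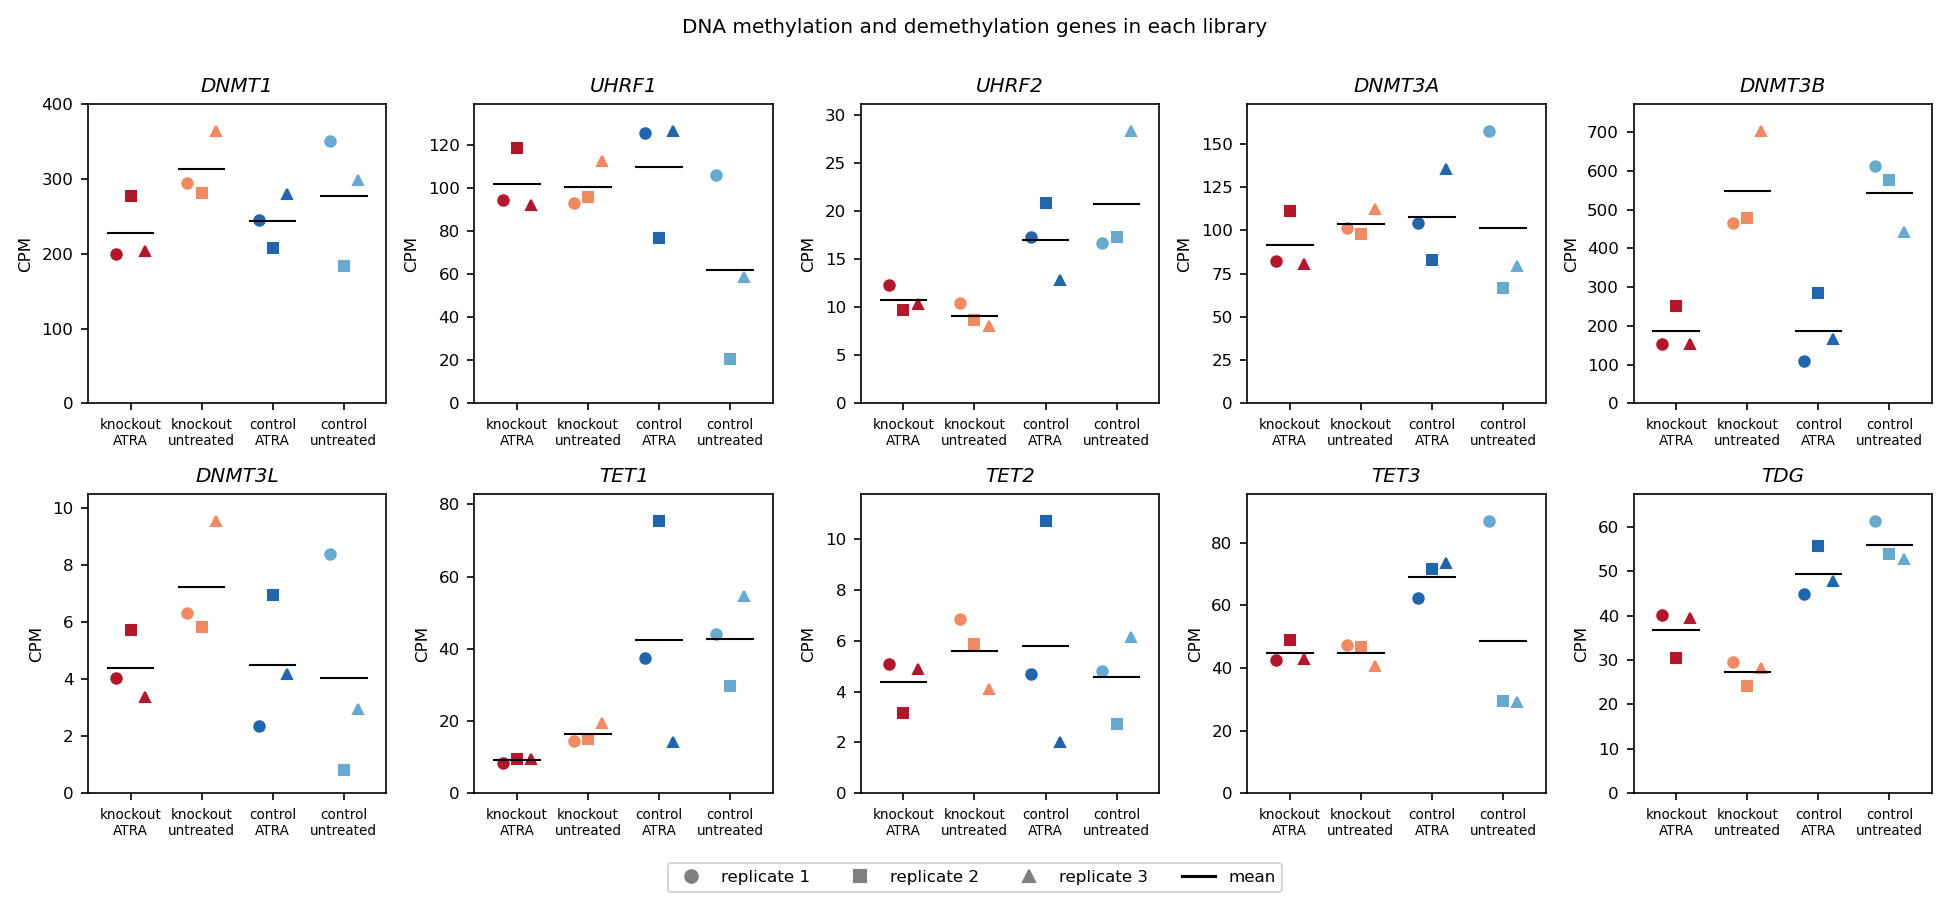
Level of each of the 10 genes in every library, in CPM on TMM-scaled library sizes (vertical axis, from 0), for knockout and control cells with and without ATRA. Points are libraries, marked by replicate number, and bars are group means. UHRF2, TET1 and TDG are lower in all untreated knockout libraries than in any untreated control library, and DNMT3B is lower in all ATRA libraries than in any untreated library of its genotype.

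Per kilobase of deposited gene length, which serves to set levels of different genes side by side, DNMT3B had the highest median level of the 10 in each of the 4 groups and TET2 the lowest. The order depends on these lengths, 9805 bases for DNMT1 and 4630 for DNMT3B. Before division by length, mean DNMT1 was above mean DNMT3B with ATRA, at 227 against 186 CPM in knockout cells and 244 against 187 CPM in control cells. Whether the deposited lengths match the transcripts present was not tested. In control cells with ATRA, DNMT3B (23.6 to 61.7 CPM per kb) overlapped DNMT1 (21.1 to 28.5). In untreated knockout cells the median level was 104 CPM per kb for DNMT3B, 30.1 for DNMT1, 18.7 for UHRF1, 14.7 for DNMT3A and 5.74 for TDG, and these 5 did not overlap their neighbours in the order. TET3 (4.08 CPM per kb) and DNMT3L (3.40) overlapped in those cells, and TET1 (1.62), UHRF2 (0.874) and TET2 (0.356) followed without overlap. In untreated control cells DNMT3B (124 CPM per kb) was again clear of the next gene, while DNMT1 (30.5), DNMT3A (11.5), UHRF1 (11.4) and TDG (11.0) overlapped one after another. TET1 stood sixth in untreated control cells, at 4.74 CPM per kb, and eighth in untreated knockout cells.

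The levels of the maintenance genes DNMT1 and UHRF1 overlapped between the genotypes, while UHRF2, the paralogue of UHRF1, was lower in the knockout. DNMT1, the enzyme that copies methylation at the replication fork, was at 295, 282 and 364 CPM in untreated knockout libraries and 351, 184 and 299 CPM in untreated control libraries. The ranges overlapped, and the log2 fold change of 0.17 had a 95% interval of -0.37 to 0.72 (edgeR adjusted p = 0.604). With ATRA, DNMT1 was at 200.3, 278 and 204 CPM in knockout libraries and 246, 207 and 280 CPM in control libraries. All 3 ATRA libraries of the knockout lay below all 3 untreated ones, by 0.46 on the log2 scale, with an interval of -1.01 to 0.08 for the log2 fold change of -0.46 (edgeR adjusted p = 0.516), and in control cells the ATRA and untreated ranges overlapped.

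UHRF1, which recognises DNA methylated on one strand and brings DNMT1 to it, was at 92.9, 96.1 and 113 CPM in untreated knockout libraries and 106, 20.8 and 58.9 CPM in untreated control libraries. The knockout libraries were close together, with untreated 1 and 2 being the near-identical pair, and the control libraries spread widely, with control 2 lowest. The log2 fold change was 0.70 with an interval of -0.23 to 1.62 (edgeR adjusted p = 0.213). With ATRA, UHRF1 was at 94.4, 119 and 92.3 CPM in knockout libraries and 126, 76.6 and 126 CPM in control libraries, which overlapped. ATRA against untreated gave a log2 fold change of 0.82 in control cells, with an interval of -0.10 to 1.75 (edgeR adjusted p = 0.29), and the groups overlapped. Without control untreated 1, UHRF1 was called higher in untreated knockout cells (1.34 on the log2 scale, edgeR adjusted p = 0.0176).

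UHRF2, a paralogue of UHRF1 that also binds methylated and hydroxymethylated DNA, was at 10.4, 8.67 and 8.01 CPM in untreated knockout libraries and 16.6, 17.3 and 28.3 CPM in untreated control libraries. Every knockout library was below every control library, and UHRF2 was 2.29-fold lower (log2 fold change -1.20 ± 0.28 SE, adjusted p = 0.00907 in edgeR). The call was lost with the near-identical knockout libraries summed (edgeR adjusted p = 0.0573). With ATRA it was at 12.3, 9.66 and 10.3 CPM in knockout libraries and 17.3, 20.8 and 12.8 CPM in control libraries. These again did not overlap, and the log2 fold change of -0.66 had an interval of -1.26 to -0.06 (edgeR adjusted p = 0.144). UHRF1 made up 95.5% ± 0.978 of the summed UHRF1 and UHRF2 level per kb in untreated knockout cells and 80.8% ± 11.3 in untreated control cells (SD, n = 3 each). The libraries did not overlap, and the exact two-sided permutation test gave p = 0.1, the smallest that 3 against 3 allows. After Benjamini-Hochberg adjustment over the 24 tests of sums and shares it was 0.267.

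Of the genes that set methylation, none was called between knockout and control cells, and DNMT3B was lower in every ATRA library. DNMT3A, one of the pair of de novo methyltransferases, was at 101, 98.1 and 112 CPM in untreated knockout libraries and 157, 66.6 and 79.4 CPM in untreated control libraries. The control range enclosed the knockout range, and the log2 fold change of 0.04 had an interval of -0.62 to 0.70 (edgeR adjusted p = 0.93). With ATRA, DNMT3A was at 82.3, 111 and 80.8 CPM in knockout libraries and 104, 82.7 and 135 CPM in control libraries, and these overlapped too.

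DNMT3B, the de novo methyltransferase that marks pluripotent cells, was at 153, 252 and 152 CPM in knockout libraries with ATRA and 466, 479 and 702 CPM in untreated knockout libraries. It was at 109, 286 and 165 CPM in control libraries with ATRA and 613, 576 and 442 CPM in untreated control libraries. In both genotypes all ATRA libraries lay below all untreated ones. With ATRA the level was 2.96-fold lower in knockout cells (log2 fold change -1.57 ± 0.34 SE, adjusted p = 0.112 in edgeR) and 2.91-fold lower in control cells (-1.54 ± 0.34 SE, adjusted p = 0.0619 in edgeR), and neither passed the threshold over all genes. ATRA and untreated libraries did not overlap for 31.9% of all genes in knockout cells and for 14.8% in control cells. Without the library labelled control ATRA 2, whose retinoid-response genes were near the untreated level, DNMT3B was called in control cells (-1.98, edgeR adjusted p = 0.0047) and in knockout cells (-1.56, edgeR adjusted p = 0.034). DESeq2 also called it, with adjusted p = 0.00282 in knockout cells and 0.00199 in control cells. Between genotypes, untreated levels differed by 0.01 on the log2 scale, with an interval of -0.71 to 0.74 (edgeR adjusted p = 0.976), and with ATRA the mean was 186 ± 57.5 CPM in knockout cells and 187 ± 90.3 CPM in control cells (SD, n = 3 each).

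**Figure D2:**
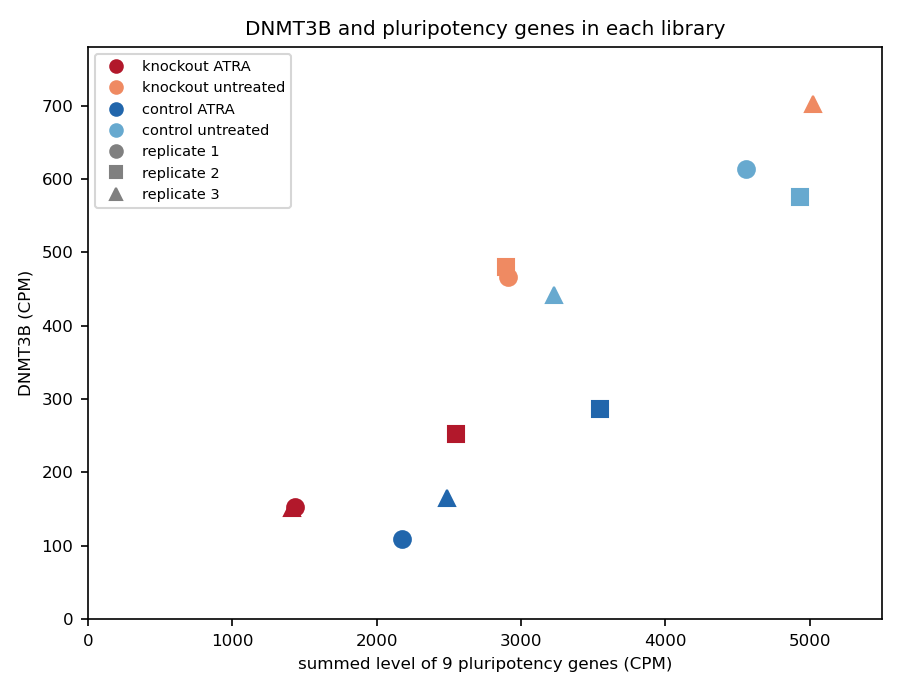
DNMT3B level (CPM, vertical axis) against the summed level of 9 pluripotency genes (CPM, horizontal axis) in each of the 12 libraries, coloured by group and marked by replicate number. The 6 ATRA libraries lie at 109 to 286 CPM of DNMT3B and the 6 untreated libraries at 442 to 702 CPM, and within the knockout groups the libraries that stood apart, untreated 3 and ATRA 2, are highest on both axes.

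The plot of DNMT3B against the pluripotency genes sets it beside 9 other genes of undifferentiated cells, none of which edgeR called with ATRA in either genotype. Their sum was 1437, 2552 and 1414 CPM in knockout libraries with ATRA and 2908, 2893 and 5020 CPM in untreated knockout libraries. It was 2178, 3549 and 2490 CPM in control libraries with ATRA and 4561, 4933 and 3225 CPM in untreated control libraries. The sums of ATRA and untreated libraries did not overlap in knockout cells and overlapped in control cells, where DNMT3B did not. LIN28B had a log2 fold change with ATRA of 0.15 in knockout cells and 0.08 in control cells (edgeR adjusted p = 0.951 and 0.936), and SOX2 of -1.51 and -1.35 (adjusted p = 0.159 and 0.0983). Knockout ATRA 2 and control ATRA 2, the ATRA libraries with the most DNMT3B, also had the largest sums of their groups. In whole-culture RNA, fewer cells of a type and less RNA per cell cannot be told apart, for DNMT3B or for any other gene here. Knockout untreated 3 and knockout ATRA 2 had the highest DNMT1, UHRF1, DNMT3A, DNMT3B and DNMT3L of their groups, and the lowest fibroblast sums; the part of cell make-up in these levels was not tested.

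DNMT3L, the catalytically silent partner of DNMT3A and DNMT3B, was at 6.33, 5.82 and 9.55 CPM in untreated knockout libraries and 8.38, 0.828 and 2.96 CPM in untreated control libraries. The control libraries spread widely, with control 2 far below the others, and the log2 fold change of 0.84 had an interval of -0.55 to 2.23 (edgeR adjusted p = 0.315). Without control untreated 1, DNMT3L was called higher in untreated knockout cells (1.93, edgeR adjusted p = 0.0218). With ATRA, DNMT3L was at 4.03, 5.72 and 3.39 CPM in knockout libraries and 2.37, 6.97 and 4.17 CPM in control libraries, which overlapped. In the knockout its ATRA libraries lay just below its untreated ones, with a log2 fold change of -0.72 and an interval of -2.11 to 0.66 (edgeR adjusted p = 0.758).

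Among the genes that remove methylation, TET1 and TDG were lower in untreated knockout cells, TET1 also with ATRA, while TET2 and TET3 were not called. TET1, the TET enzyme typical of pluripotent cells, was at 14.5, 15.1 and 19.6 CPM in untreated knockout libraries and 44.0, 29.7 and 54.5 CPM in untreated control libraries. No knockout library reached any control library, and TET1 was 2.61-fold lower (log2 fold change -1.38 ± 0.45 SE, adjusted p = 0.0329 in edgeR). With ATRA, TET1 was at 8.49, 9.51 and 9.56 CPM in knockout libraries and 37.4, 75.3 and 14.2 CPM in control libraries. The knockout libraries were all low and close together, with knockout ATRA 1 and 3 being the near-identical pair. The control libraries spread over a wide range, and the groups did not overlap. TET1 was 4.61-fold lower (log2 fold change -2.20 ± 0.46 SE, adjusted p = 0.0183 in edgeR), and 4 of the 10 genes had no overlap in that comparison (UHRF2, TET1, TET3 and TDG, all lower), as did 34.6% of all genes, 17.9% with the knockout lower. The call with ATRA was lost without knockout ATRA 1 (edgeR adjusted p = 0.0882), without knockout ATRA 3 (0.0818), without control ATRA 2 (0.0509, log2 fold change -1.49), in limma-voom (0.0556), with the compared groups alone (0.0629), with the near-identical knockout libraries summed (0.136) and without the 2 knockout libraries that stood apart (0.0621). The untreated call was lost without any 1 of the 3 knockout libraries (edgeR adjusted p = 0.0584 to 0.104), without control untreated 3 (0.114), in limma-voom (0.0511), with the near-identical libraries summed (0.132) and without the 2 knockout libraries that stood apart (0.0733). In knockout cells TET1 was also lower in every ATRA library than in any untreated one, with a log2 fold change of -0.83 and an interval of -1.81 to 0.14 (edgeR adjusted p = 0.518). The knockout-to-control difference of TET1 was not shown to change with ATRA, with an interaction of -0.82 on the log2 scale (interval -2.19 to 0.55, edgeR adjusted p = 0.654).

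TET2, the TET enzyme best known from blood cells, had low levels throughout, at 6.85, 5.86 and 4.11 CPM in untreated knockout libraries and 4.80, 2.75 and 6.17 CPM in untreated control libraries. The groups overlapped, with a log2 fold change of 0.29 and an interval of -0.81 to 1.40 (edgeR adjusted p = 0.671). With ATRA it was at 5.07, 3.17 and 4.88 CPM in knockout libraries and 4.71, 10.7 and 2.02 CPM in control libraries, again with overlap. TET3, which oxidises the paternal genome in the mouse zygote and rises in neural cells, was at 47.4, 46.7 and 40.6 CPM in untreated knockout libraries and 86.8, 29.5 and 29.0 CPM in untreated control libraries. Control untreated 1 lay above the knockout libraries and the other control libraries below them, and the log2 fold change of -0.11 had an interval of -0.87 to 0.65 (edgeR adjusted p = 0.826). Without control untreated 1, TET3 was called higher in untreated knockout cells (0.62 on the log2 scale, edgeR adjusted p = 0.0214). With ATRA, TET3 was at 42.6, 48.9 and 42.9 CPM in knockout libraries and 62.3, 71.5 and 73.5 CPM in control libraries. These did not overlap, and the log2 fold change of -0.63 had an interval of -1.39 to 0.14 (edgeR adjusted p = 0.266), while without control untreated 1 TET3 was called lower with ATRA (-0.63, adjusted p = 0.0378).

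TDG, the glycosylase that removes the bases made by TET oxidation, was at 29.6, 24.1 and 28.1 CPM in untreated knockout libraries and 61.2, 53.9 and 52.8 CPM in untreated control libraries. Both groups were tight and far apart, and TDG was 2.05-fold lower (log2 fold change -1.04 ± 0.20 SE, adjusted p = 0.00444 in edgeR), the smallest adjusted p of the 10. With ATRA it was at 40.2, 30.3 and 39.4 CPM in knockout libraries and 44.8, 55.6 and 47.8 CPM in control libraries. The groups lay closer but did not overlap, and the log2 fold change of -0.43 had an interval of -0.85 to -0.01 (edgeR adjusted p = 0.17). In knockout cells every ATRA library was above every untreated one, with a log2 fold change of 0.43 and an interval of 0.01 to 0.85 (edgeR adjusted p = 0.419). The interaction was 0.61 on the log2 scale with an interval of 0.01 to 1.20 (edgeR adjusted p = 0.509). Over all tested genes below 40% GC, where TDG lies, the median interaction was 0.59. With the GC trend of each library taken out, as described below, the TDG change with ATRA in knockout cells was 0.11 (interval -0.49 to 0.71). The TDG interaction was then 0.03 (interval -0.81 to 0.88). No gene of the 19130 was called for the interaction by edgeR, where 1868 had an unadjusted p under 0.05 and DESeq2 called 13.

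GC content moved with genotype and with these calls. The longest transcripts of TDG (39.0% GC), TET1 (42.1%), TET2 (43.0%) and UHRF2 (44.2%) are poor in GC, and those of the other 6 genes hold 53.2% to 59.6%. Over all tested genes the untreated log2 fold change had a median of -1.25 below 40% GC, with 62.6% of 2418 genes called lower, and of -0.78 from 40 to 45%, with 43% of 3101 called lower. From 50 to 55% the median was 0.38, with 20.8% of 2433 genes called higher and 5.14% lower. TDG, UHRF2 and TET1 lay in bins where many genes were called lower, and TET2 was the GC-poor gene of the 10 that was not lower. With each library's GC trend taken out as an offset, none of the 10 was called by edgeR in untreated cells. An unadjusted p under 0.05 was found for 2, UHRF2 and TET2. TET2 was higher in the knockout, with a log2 fold change of 1.03 (interval 0.03 to 2.04, edgeR adjusted p = 0.132). TDG had a log2 fold change of 0.07 (interval -0.53 to 0.67, edgeR adjusted p = 0.888), UHRF2 -0.61 (interval -1.11 to -0.11, adjusted p = 0.0833) and TET1 -0.51 (interval -1.36 to 0.34, adjusted p = 0.372). With ATRA, TET1 was called with the offset as well, at -1.65 (interval -2.52 to -0.78, edgeR adjusted p = 0.0325). It was not called with the offset and a replicate block together (-1.61, edgeR adjusted p = 0.0655). TET3 with ATRA was at -0.84 under the offset (interval -1.57 to -0.12, edgeR adjusted p = 0.149). The GC trend and the genotype run together in untreated cells. They also do so with ATRA, by a narrower gap, with control ATRA 3 at 0.096 and the knockout libraries from 0.113. GC trend and genotype therefore cannot be told apart in either comparison. For DNMT3B, ATRA against untreated gave a log2 fold change of -1.46 in knockout cells (edgeR adjusted p = 0.206) and -1.53 in control cells (adjusted p = 0.074) under the offset.

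**Figure D3:**
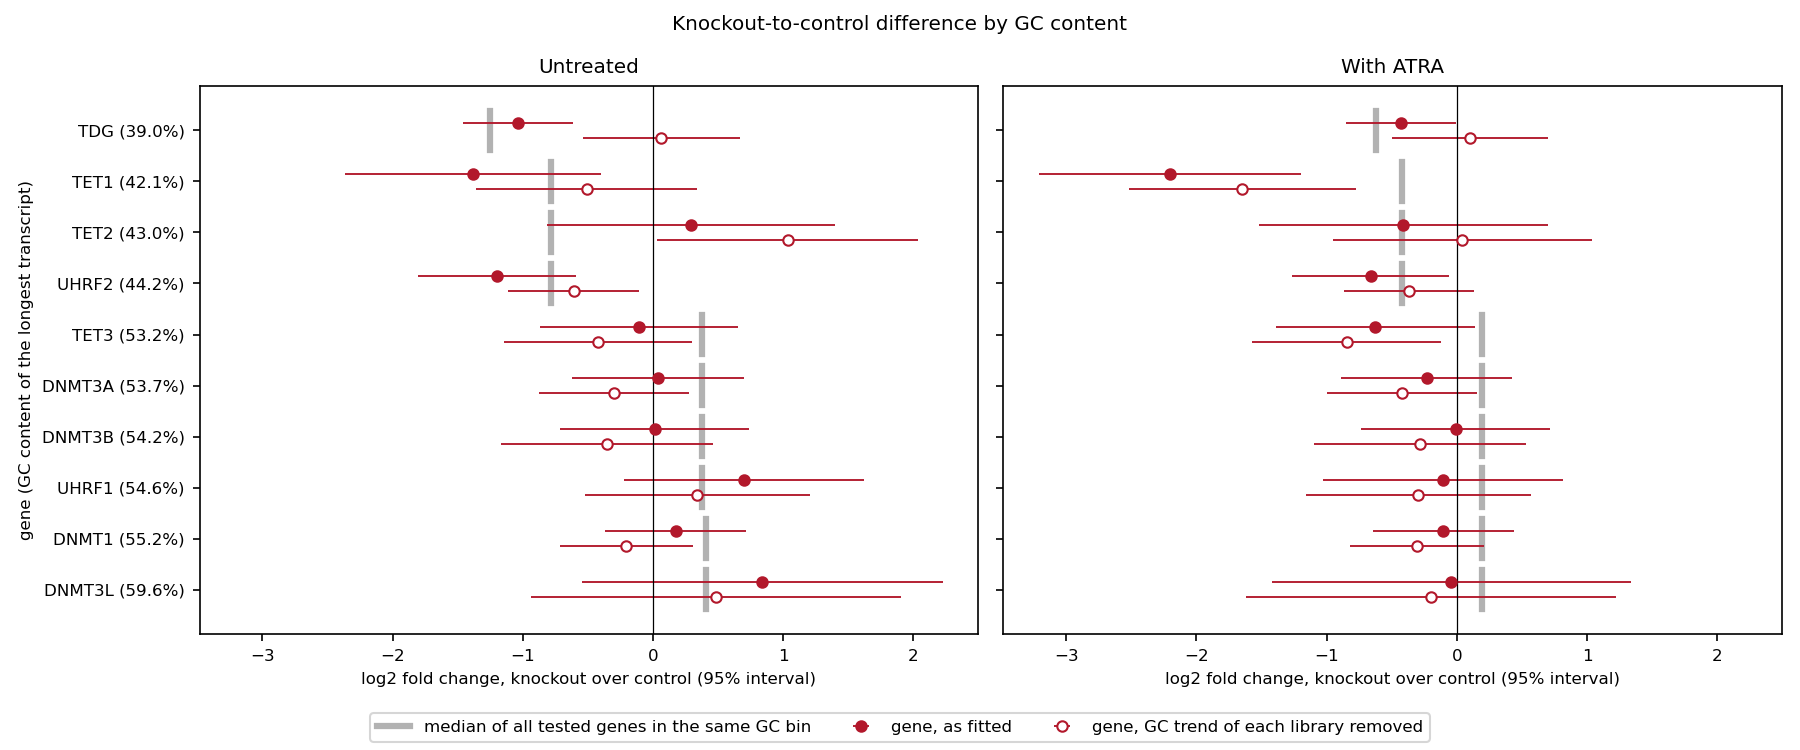
Log2 fold change of knockout over control with its 95% interval (horizontal axis) for the 10 genes, ordered by GC content of the longest transcript (vertical axis), untreated on the left and with ATRA on the right. Filled points are the fit as reported, open points the fit with each library's GC trend removed, and grey bars the median of all tested genes in the same GC bin. Once the trend is removed, TDG in untreated cells moves from -1.04 to 0.07, and UHRF2 from -1.20 to -0.61, with an interval below 0. With ATRA, TET1 moves from -2.20 to -1.65, with an interval below 0.

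Summed per kb, the catalytic methyltransferases DNMT1, DNMT3A and DNMT3B reached 76.5 ± 19.4 CPM per kb in knockout cells with ATRA and 166 ± 34.1 in untreated knockout cells (SD, n = 3 each). The sum was 80.8 ± 15.8 CPM per kb in control cells with ATRA and 160 ± 27.6 in untreated control cells (SD, n = 3 each). ATRA and untreated libraries did not overlap in either genotype (exact two-sided permutation p = 0.1 each, the smallest 3 against 3 allows, and 0.267 after Benjamini-Hochberg adjustment over the 24 tests of sums and shares). DNMT3B made up 51.9% of this sum in knockout cells with ATRA and 71.3% in untreated knockout cells, and 48.2% in control cells with ATRA and 73.4% in untreated control cells. The TET sum was 5.17 ± 0.285 CPM per kb in knockout cells with ATRA and 11.0 ± 3.61 in control cells with ATRA (SD, n = 3 each, exact permutation p = 0.1). In untreated cells it was 6.03 ± 0.111 CPM per kb in the knockout and 9.12 ± 3.35 in the control (SD, n = 3 each, exact permutation p = 0.3), and the libraries overlapped. TET1 made up 29.3% of the TET sum in untreated knockout cells and 52.7% in untreated control cells without overlap, and with ATRA 19.1% in knockout cells and 38.1% in control cells with overlap.

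**Figure D4:**
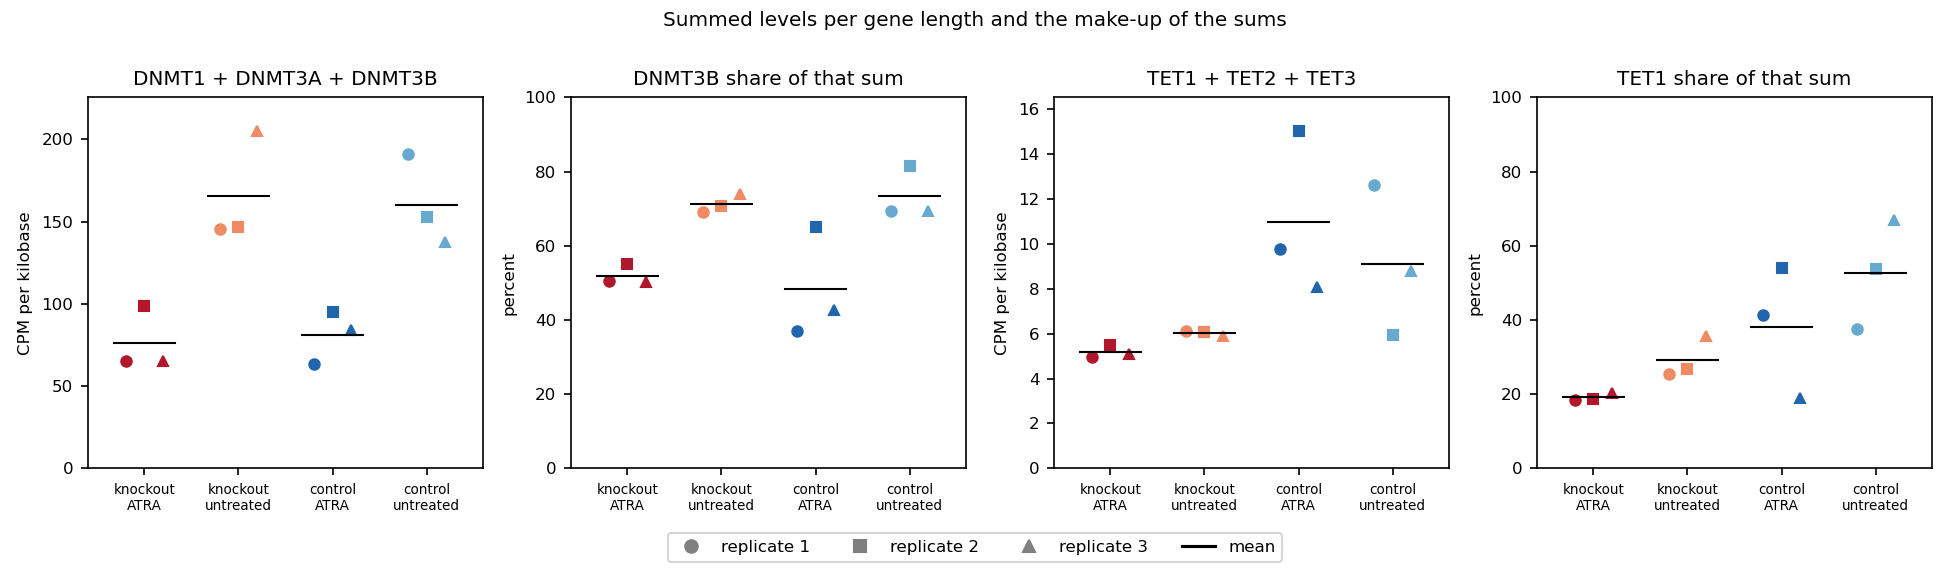
Sum of DNMT1, DNMT3A and DNMT3B and of TET1, TET2 and TET3 in CPM per kilobase of gene length, and the percent of each sum held by DNMT3B or TET1, in every library (points, marked by replicate number) with group means (bars). The methyltransferase sum averages 76.5 and 80.8 CPM per kb with ATRA in knockout and control cells, below all untreated libraries, and the TET sum of the knockout is 5.17 CPM per kb with ATRA, below all control libraries with ATRA.

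Other genes of the pathway were taken in 8 lists by their role. Of 9 partners of maintenance, which help DNMT1 and UHRF1 work on chromatin, 1 was called higher and 3 lower in untreated knockout cells. The list median was -0.15 against -0.11 for all genes, of which 13% were called higher and 21.9% lower. HELLS, a chromatin remodeller needed for DNA methylation, was at 18.3, 15.8 and 16.7 CPM in untreated knockout libraries and 28.7, 99.5 and 77.5 CPM in untreated control libraries, without overlap. Its log2 fold change was -2.02 ± 0.43 SE (adjusted p = 0.00644 in edgeR) and -0.77 with the GC offset (adjusted p = 0.0617). CDCA7L, a paralogue of the HELLS partner CDCA7, was at 42.6, 36.9 and 28.3 CPM in untreated knockout libraries and 117, 135 and 104 CPM in untreated control libraries. It was 3.30-fold lower (log2 fold change -1.72 ± 0.31 SE, adjusted p = 0.00382 in edgeR) and was called with the GC offset too (-1.42, adjusted p = 0.0124). With ATRA, where 7.51% of all genes were called, CDCA7L was the 1 partner called. It was at 26.5, 17.6 and 26.6 CPM in knockout libraries and 36.6, 56.0 and 88.8 CPM in control libraries (-1.36 ± 0.31 SE, adjusted p = 0.0239 in edgeR). That call was lost without any 1 of the knockout libraries with ATRA or control ATRA 3 (-1.45 to -0.95, edgeR adjusted p = 0.053 to 0.0834) and without the 2 knockout libraries that stood apart (0.0775).

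Of 15 tested genes of base excision repair and the GADD45 family, 2 were called higher and 2 lower in untreated knockout cells. Of all genes, 13% were called higher and 21.9% lower. The list median was 0.13 against -0.11 for all genes. GADD45B, a stress-induced protein linked to active demethylation, was at 71.6, 74.8 and 60.5 CPM in untreated knockout libraries and 18.0, 15.1 and 17.4 CPM in untreated control libraries. It was 4.09-fold higher (log2 fold change 2.03 ± 0.31 SE, adjusted p = 0.00258 in edgeR), and 1.72 with the GC offset (adjusted p = 0.00581). With ATRA, where 7.51% of all genes were called, GADD45B was the 1 gene of the list called. It was at 77.6, 46.1 and 77.2 CPM in knockout libraries and 29.3, 15.7 and 36.2 CPM in control libraries (1.31 ± 0.30 SE, adjusted p = 0.0248 in edgeR), and knockout ATRA 2 was lowest of the knockout libraries. The call was lost without knockout ATRA 1 or 3 or control ATRA 1 or 2 (1.03 to 1.37, edgeR adjusted p = 0.0524 to 0.112). NEIL3, a glycosylase for oxidised bases, was lower in untreated knockout cells (-1.95, edgeR adjusted p = 0.00264) and at -0.96 with the GC offset (adjusted p = 0.0595).

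Of 9 TET cofactors and regulators, 2 were called higher and 6 lower in untreated knockout cells, with a median of -1.21 against -0.11 for all genes, of which 13% were called higher and 21.9% lower. OGT, which adds sugar groups to proteins and binds TET enzymes, had a log2 fold change of -1.55 ± 0.27 SE (adjusted p = 0.00333 in edgeR). With the GC offset 1 of the 9 was called, lower, with OGT at -0.73 (adjusted p = 0.0984). With ATRA, where 7.51% of all genes were called, 4.24% lower, the 1 call was CXXC4, a CXXC-domain protein that binds CpG pairs and is tied to TET2 turnover. CXXC4 was at -1.61 ± 0.33 SE (adjusted p = 0.0172 in edgeR) and -1.17 with the GC offset (adjusted p = 0.0466), and this call was lost without any 1 of the knockout libraries with ATRA (adjusted p = 0.0519 to 0.0776). Of 9 methyl-CpG readers, 1 was called higher and 1 lower in untreated knockout cells, beside 13% and 21.9% of all genes. These were ZBTB4 at 0.57 (edgeR adjusted p = 0.0228) and ZBTB33, also known as Kaiso, at -1.99 (adjusted p = 0.00572), neither of them called with the GC offset. With ATRA the reader ZBTB38 was lower (-1.60, edgeR adjusted p = 0.032), and at -1.06 with the offset (adjusted p = 0.0746), and 6 of the 12 fits without 1 library did not call it (adjusted p up to 0.111).

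Of 13 genes that target or protect methylation, such as TRIM28 and SETDB1, none was called by edgeR between knockout and control cells, untreated (3 at an unadjusted p under 0.05, 1 called by DESeq2 and none by limma-voom) or with ATRA (5 at an unadjusted p under 0.05, 3 called by DESeq2 and none by limma-voom). With the GC offset, 1 was called higher and 1 lower with ATRA, and without the second library of both control groups 2 were called lower in untreated cells and 1 with ATRA. Over all genes DESeq2 called 40.9% in untreated cells and 15.5% with ATRA, and limma-voom 33.7% and 5.31%. Of 13 tested genes of the S-adenosylmethionine cycle, which supplies the methyl groups, 3 were called higher and 4 lower in untreated knockout cells. Of all genes, 13% were called higher and 21.9% lower there, and with the GC offset 1 of the 13 was called higher and 2 lower. With ATRA edgeR called none of the 13, where it called 7.51% of all genes, while 3 had an unadjusted p under 0.05 and DESeq2 called 2. AHCYL2, related to the enzyme that clears S-adenosylhomocysteine, was at -1.32 (edgeR adjusted p = 0.0053) and at -1.04 with the GC offset (adjusted p = 0.0168). MAT2B, the regulatory subunit of the enzyme that makes S-adenosylmethionine, was at -1.26 (edgeR adjusted p = 0.00833) and at 0.05 with the offset (adjusted p = 0.947). Of 16 DNA replication genes, 6 were called higher and 3 lower in untreated knockout cells, beside 13% and 21.9% of all genes. That split depended on the setting, with 1 higher and 1 lower under the GC offset, none higher and 1 lower without the 2 knockout libraries that stood apart, and 3 higher and 5 lower without the second library of both control groups. RFC4, a subunit of the clamp loader, was at -1.93 (edgeR adjusted p = 0.00468) and at -1.56 with the GC offset (adjusted p = 0.0166). MCM6, of the replicative helicase, was at -1.24 untreated (edgeR adjusted p = 0.0145) and -0.49 with the offset (adjusted p = 0.201), and was the 1 call with ATRA, at -1.19 (adjusted p = 0.0457) and -0.79 with the offset (0.094). Its untreated call was lost in 3 and its call with ATRA in 7 of the 12 fits without 1 library (-1.44 to -0.86 and -1.37 to -0.74, edgeR adjusted p up to 0.0717 and 0.17). Of 17 germline genes that promoter methylation is known to keep silent, 7 passed the filter on low counts. Of these 1 was called, STK31, lower in untreated knockout cells (-2.32, edgeR adjusted p = 0.0184), where 34.9% of all genes were called. The median of the 7 was 0.21 there, with 4 above 0, against -0.11 for all genes. STK31 was at -1.26 with the GC offset (adjusted p = 0.142), and its call was lost in 3 of the 12 fits without 1 library (adjusted p up to 0.0794). With ATRA edgeR called none of the 7 (2 at an unadjusted p under 0.05, 4 with the GC offset), where it called 7.51% of all genes, and DESeq2 called 2. The median of the 7 with ATRA was 1.20, with 6 above 0, against -0.06 for all genes. For ATRA against untreated in control cells their median was -1.43, with 0 above 0 and 4 at an unadjusted p under 0.05, and edgeR called none. With the near-identical knockout libraries summed, the untreated calls came to 1 of the 9 maintenance partners, 3 of the 15 repair and GADD45 genes, 1 of the 9 TET cofactors, 1 of the 13 genes of the S-adenosylmethionine cycle, 1 of the 16 replication genes and none in the other 3 lists, and no gene of the 8 lists was called with ATRA. Of the 91 tested genes of the 8 lists, edgeR called none for ATRA against untreated in knockout cells (5 at an unadjusted p under 0.05, none by DESeq2) or in control cells (25 at an unadjusted p under 0.05, 5 by DESeq2).

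Across the 12 libraries, which share genotype, treatment, cell make-up and GC trend, the levels of the 10 genes followed different courses, given here as a description. On log2 CPM, UHRF2 correlated with TDG at r = 0.851 and with TET1 at r = 0.802, and DNMT1 with DNMT3A at r = 0.752 and with UHRF1 at r = 0.506. DNMT3B and DNMT3A had r = 0.0655. The gene most like each of the 10 among 11069 genes of at least 5 CPM was WBP11 for DNMT1 (r = 0.977), ARHGAP17 for UHRF1 (0.984), SEC24B for UHRF2 (0.981), KLHL18 for DNMT3A (0.972), HAS3 for DNMT3B (0.974), PITPNA for DNMT3L (0.941), DDX21 for TET1 (0.978), ZNF407 for TET2 (0.928), VTI1A for TET3 (0.921) and NAP1L3 for TDG (0.943).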

How the data were processed

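The authors deposited whole-number read counts for each gene, 1 column per library; per the labels' protocols, libraries were prepared with a stranded TruSeq mRNA kit. Per the submitters' processing notes, bcl2fastq, TopHat2, Subread, featureCounts and DESeq2 were used on hg19 and GRCh37; no version or strand setting, nor how multiply mapped reads were treated, is stated in the sources at hand. Overlapping or antisense genes and near-identical copies may therefore share reads with the genes described. Groups came from the sample titles.

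From these counts, genes were kept with filterByExpr (minimum count 10), scaled by TMM and fitted in edgeR 4.0.16 (R 4.3.3) with 1 coefficient per group over 12 libraries. Quasi-likelihood F-tests gave 5 contrasts, adjusted by Benjamini-Hochberg over all 19130 genes; a gene is called at an adjusted p under 0.05. Intervals are 95%. Levels are CPM on TMM-scaled sizes, and per-kb levels divide by the deposited gene length. The order of genes and the sums and shares per kb depend on that length. GC content was read from the longest GENCODE v44 transcript, on a build (GRCh38) other than the authors' one, and symbols matched for 91.6% of genes of at least 5 CPM; a smooth curve of each library's log2 CPM deviations on GC content served as the offset. Sums and shares were tested by exact permutation.

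The members and lists were chosen with earlier results of these data known. All members are named, and of each list the 2 called genes with the smallest adjusted p per comparison, except 1 gene that is not reported here. Steps were tested on simulated data. Other settings were RLE scaling, DESeq2 1.42.0, limma-voom (limma 3.58.1), other filters, compared groups only, a replicate block, left-out libraries, summed near-identical libraries and the GC offset.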

Additional observations from a re-analysis of the deposited data

How the results depend on the processing

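Of 981 recomputed values of 41 fold changes, 835 kept their direction and side of the threshold, 104 lost and 15 gained the call, and 27 changed sign, among them the untreated calls of TDG and MAT2B under the GC offset; the others that changed sign had not been called. The cause of these changes was not tested, apart from settings that by construction hold fewer libraries or genes. Near-identical knockout libraries, summed as 1 library each, left 1072 genes called between untreated knockout and control cells (1 of the 10, TDG) and 71 with ATRA (0 of the 10), and 0 for ATRA against untreated in either genotype. The GC offset left 3281 genes called between untreated knockout and control cells and 0 of the 10, and 0 genes for ATRA against untreated in control cells; it moved the median log2 fold change of all genes in untreated cells from -0.11 to 0.05. With the GC offset, the untreated log2 fold change was -0.20 for DNMT1, -0.30 for DNMT3A, -0.35 for DNMT3B, 0.065 for TDG and 0.045 for MAT2B, and with ATRA 0.10 for TDG. With the GC offset and the replicate block together, 2678 genes were called in untreated cells and 738 with ATRA (0 of the 10 in each), 1 for ATRA against untreated in knockout cells and 43 in control cells, and the values were -0.20 for DNMT1, -0.27 for DNMT3A, -0.34 for DNMT3B, 0.10 for TDG and 0.021 for MAT2B untreated and 0.11 for TDG with ATRA.

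Same-numbered libraries did not all vary together: the correlations of their deviations were 0.0233, -0.0432 and -0.0718 between untreated knockout and control cells, -0.0846, -0.0824 and 0.00316 between those with ATRA, 0.393, -0.408 and -0.485 between ATRA and untreated knockout cells and 0.0936, 0.283 and -0.225 between ATRA and untreated control cells, so the numbers were not taken to pair the libraries. The replicate block kept every call among the 10 (TET1 at adjusted p = 0.0488 untreated and 0.0438 with ATRA), but not those of CDCA7L, MCM6 and ZBTB38 with ATRA (0.0509, 0.0846 and 0.0591), with 761 genes called between knockout and control cells with ATRA, and for ATRA against untreated 0 in knockout and 4 in control cells. For knockout against control with ATRA, DESeq2 called 2964 genes, a fit without the filter 2317, the compared groups alone 768 and a fit without the 2 knockout libraries that stand apart 881; limma-voom, the compared groups alone and the fit without those 2 libraries called 0 of the 10. For ATRA against untreated in knockout cells, DESeq2 called 554 genes and no filter 272 (1 of the 10 each), the compared groups alone 1336 (2 of the 10, DNMT3B and TET1), leaving out the second library of both control groups 571 (1 of the 10), and limma-voom and leaving out the 2 knockout libraries 0. In control cells DESeq2 called 1636 genes, no filter 1407 and leaving out the second library of both control groups 1903 (1 of the 10 each), the compared groups alone 0 and leaving out the 2 knockout libraries 3. For the interaction, DESeq2 called 13 genes and no filter and leaving out the second control libraries 8 each; the compared groups alone give no interaction. Estimates near 0 changed sign in untreated cells: DNMT1 was -0.060 and DNMT3A -0.20 without the second control libraries, DNMT3A -0.017 and DNMT3B -0.20 without the 2 knockout libraries, DNMT3A -0.0013 and DNMT3B -0.026 with no filter, and TET3 0.13 in limma-voom. The interaction of TET1 was 0.11 without the second control libraries.

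Leaving out 1 library at a time gave 3058 to 8453 genes and 2 to 6 of the 10 called between untreated knockout and control cells, 219 to 2129 genes and 0 to 2 of the 10 with ATRA, 0 to 181 genes and 0 to 1 of the 10 for ATRA against untreated in knockout cells, 0 to 2457 genes and 0 to 3 of the 10 in control cells, and 0 to 135 genes for the interaction. Control untreated 1 gave the highest untreated count of the 10: without it DNMT3L, UHRF1 and TET3 were called higher beside TDG, TET1 and UHRF2 called lower. Log2 fold changes ranged from -0.054 to 0.38 for DNMT1, -0.19 to 0.51 for DNMT3A, -0.20 to 0.13 for DNMT3B and -0.37 to 0.62 for TET3 between untreated knockout and control cells. The methyltransferase sum differed between knockout and control by -14.5 to 20.5 CPM per kb untreated and -15.5 to 2.69 with ATRA, the DNMT3B share by -4.12 to 1.91 percentage points untreated and -1.91 to 12.1 with ATRA, and the TET sum between ATRA and untreated control cells by -0.20 to 3.59 CPM per kb. With 3 libraries a group, these limits apply to all 10 genes; depth limits mainly TET2 and DNMT3L, the genes of the fewest counts.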
